A study of Ptychodera flava with 8 samples.

Results

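Chromatin accessibility at the early gastrula was compared with that at the mid gastrula in Ptychodera flava, an acorn worm of the hemichordates, which are marine relatives of echinoderms and chordates. The compared regions were the peaks of the 2 stage lists, 48416 at early gastrula and 43317 at mid gastrula, together 91733 of the 202721 peaks in the series. The assay was ATAC-seq on whole embryos, with 2 libraries for each of the 4 stages. Each sample held 75000 cells from pooled embryos, whose jelly coat was stripped with N-acetylcysteine before dithiothreitol, lysis and Tn5 treatment. The early and the mid gastrula groups differed by stage alone as far as the labels say, and no strain, genotype or drug was named for either. Whether both libraries of 1 stage came from 1 spawning or from several is not stated. Since the embryo was taken whole, a site open in fewer cells and a site less open in every cell cannot be told apart.

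In ATAC-seq the Tn5 transposase cuts and tags DNA that is not wrapped in nucleosomes, so peaks fall at promoters, enhancers and other bound elements. Gastrulation is the infolding of the blastula wall that sets up the gut and the germ layers, and enhancers of regulatory genes are known to open and close as these territories form. Early and mid gastrula are successive steps of that movement. Gene positions and DNA sequence were not used here, because no genome build is named for the lists, so sites are given by scaffold and 1-based position.

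Each peak was placed in 1 of 3 classes by whether it overlapped a peak of the other stage by at least 1 bp. Peaks of the early gastrula list with no such counterpart are called early-only, those of the mid gastrula list mid-only, and the others matched. Each stage has 1 list, which by its name and layout holds peaks kept for ranking alike between replicates by the irreproducible discovery rate (IDR), so the lists give no value per library, and no test between stages was made and no p-value computed from them. Intervals below are 95% intervals that cover counting error of peaks only, and read depth is unknown. Enrichment is the fold over background that the authors deposited for each peak. It was compared between the stages only as a percentile within its own list, where 100 marks the most enriched peak. A peak missing from a list may still be accessible at that stage but below the threshold of its list.

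Early-only peaks outnumbered mid-only peaks, and both classes were less enriched and narrower than matched peaks. The early-only class held 15143 peaks, which is 31.3% of the early gastrula list (30.9 to 31.7). The mid-only class held 9946 peaks, which is 23.0% of the mid gastrula list (22.6 to 23.4). These shares are the background against which every share of unmatched peaks below is read. By length, early-only peaks covered 4.21 Mb, or 25.8% of the early gastrula peak length, and mid-only peaks 2.85 Mb, or 19.4% of the mid gastrula peak length. The early-only class was 1.52 times as large as the mid-only class. The early list was also the longer one, and the balance at equal list lengths is given further on.

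Unmatched peaks were concentrated in the lower part of each enrichment ranking but occurred at every level. Early-only peaks had a median percentile of 37.0 (37.0 to 37.8), with quartiles of 18.8 and 58.0, against a median of 57.7 for matched early gastrula peaks. Mid-only peaks had a median percentile of 34.1 (33.4 to 34.8), with quartiles of 16.2 and 54.2, against 56.1 for matched mid gastrula peaks. The middle ranges of unmatched and matched peaks thus overlapped widely. In deposited units, the median enrichment was 7.23 for early-only and 8.75 for matched early gastrula peaks. At mid gastrula it was 7.27 for mid-only and 8.96 for matched peaks. The classes stood further apart by the deposited −log10 p, which measures how far the reads of a peak exceed background: the median percentile by −log10 p was 23.8 for early-only and 63.3 for matched early gastrula peaks. At mid gastrula these percentiles were 22.1 and 59.6. Enrichment and −log10 p ranked peaks differently, with a Spearman rho of 0.686 over the 48416 early gastrula peaks and 0.683 over the 43317 mid gastrula peaks, both columns coming from the same reads.

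The share without a counterpart stayed level through the lower 40% of the early gastrula ranking and then fell. It was 42.3% in the least enriched 10% of the early gastrula list and 41.6% between percentiles 30 and 40. From there it dropped to 29.2% between 60 and 70 and to 7.81% in the most enriched 10%. In the mid gastrula list the share fell from the start, from 36.4% in the least enriched 10% through 29.9% and 18.9% at the same later steps to 4.15% in the most enriched 10%. The early gastrula share was the higher one in all 10 classes of enrichment. In the most enriched 10%, 378 of 4841 early gastrula peaks (7.09 to 8.60%) and 179 of 4310 mid gastrula peaks (3.597 to 4.79%) lacked a counterpart.

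**Figure D1:**
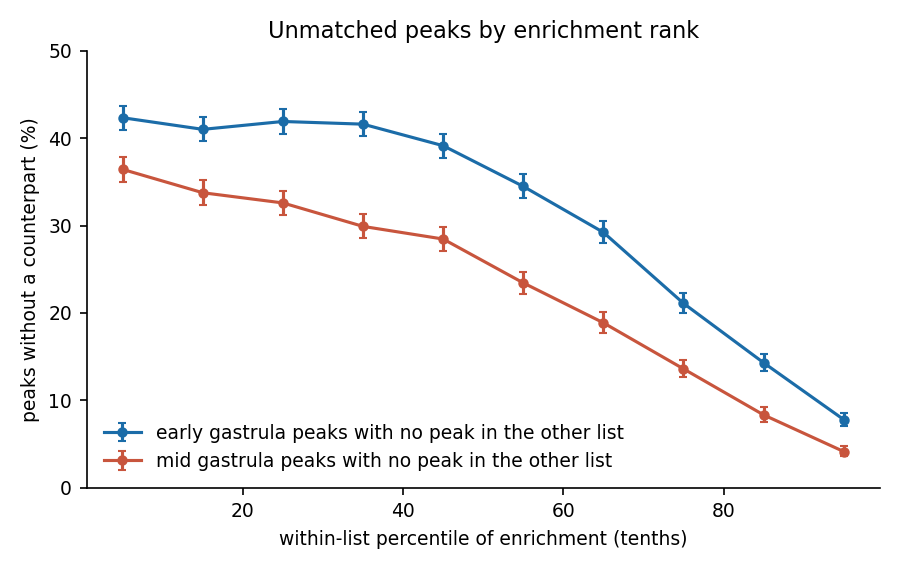
Share of peaks with no overlapping peak in the other list (vertical axis, percent) in 10 classes of within-list enrichment percentile (horizontal axis), for early gastrula (blue) and mid gastrula (red); bars are Wilson 95% intervals. The early gastrula line is level near 42% up to percentile 40 and ends at 7.81%, and the mid gastrula line lies below it throughout. The lists are whole and differ in length.

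The most enriched early-only peak lay on scaffold 15 at 37923982 to 37924316. Its enrichment was 22.4 and its −log10 p 73.6, and the nearest mid gastrula peak was 63655 bp away. This site was not particular to early gastrula: it overlapped an early blastula peak at percentile 99.7 of that list and a late gastrula peak at percentile 96.6. The second, on scaffold 19 at 21623853 to 21624141, also had an enrichment of 22.4 and a −log10 p of 73.6. It overlapped peaks at percentile 93.6 at early blastula and 96.1 at late gastrula, and the nearest mid gastrula peak was 8622 bp away. The third, on scaffold 28 at 3870890 to 3871175, had an enrichment of 21.0 and was the sole early gastrula peak within 50 kb, while the mid gastrula list held none there. Its overlapping peaks stood at percentile 95.6 at early blastula and 87.2 at late gastrula. All 3 of these early-only peaks therefore had a highly ranked counterpart both before and after the mid gastrula list, and all 3 had the maximum deposited score of 1000, a score that falls as the IDR rises.

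The 3 most enriched mid-only peaks also had a late gastrula counterpart each, and 1 of them had one at early blastula. The first lay on scaffold 24 at 7971336 to 7971649, with an enrichment of 24.8 and a −log10 p of 89.1. It overlapped a late gastrula peak at percentile 99.1 and no early blastula peak, and 6 early gastrula peaks lay within 50 kb, the nearest 3415 bp away. Its deposited score was 460, far below the maximum despite the high enrichment. The second, on scaffold 11 at 37128904 to 37129344, had an enrichment of 23.5 and a score of 1000. It was an isolated site, with no other mid gastrula peak within 192276 bp and no early gastrula peak within 57470 bp, and it overlapped peaks at percentile 76.1 at early blastula and 99.96 at late gastrula. The third, on scaffold 137 at 15813 to 16115, had an enrichment of 21.4 and a score of 738. It was the sole peak of both gastrula lists on its short scaffold and overlapped a late gastrula peak at percentile 98.3.

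Beyond these sites, the lists of the neighbouring stages separated the unmatched classes. An overlapping early blastula peak was found for 51.7% of early-only peaks (50.9 to 52.5) and for 20.8% of mid-only peaks (20.01 to 21.6). An overlapping late gastrula peak was found for 46.8% of early-only peaks (46.0 to 47.6) and for 77.4% of mid-only peaks (76.5 to 78.2). Matched peaks had an early blastula counterpart in 78.3% and 78.4% and a late gastrula counterpart in 94.2% and 94.2% of cases, counted from the early and the mid gastrula list. The late gastrula list is the longest of the 4 and the early blastula list lies between the compared lists in length, so the levels of the shares carry those lengths. Within 1 outer list, early-only and mid-only shares are read against the same peaks.

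The early blastula share of early-only peaks rose with enrichment. Among early-only peaks in the lowest 20% of enrichment, 46.5% had an early blastula counterpart (44.9 to 48.02), and in the highest 20% this was 74.8% (72.1 to 77.3). Mid-only peaks showed no such rise, at 19.5% (18.2 to 21.0) in the lowest and 20.1% (17.0 to 23.7) in the highest 20%. The late gastrula share of early-only peaks went from 44.8% (43.3 to 46.4) to 50.98% (48.0 to 54.0), and that of mid-only peaks from 78.1% (76.6 to 79.5) to 83.4% (80.03 to 86.3). Matched peaks also rose in their early blastula share, from 64.9% to 90.2% at early gastrula and from 69.1% to 88.2% at mid gastrula. The early-only share thus stayed below that of matched peaks of like rank, and the level line was that of mid-only peaks.

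**Figure D2:**
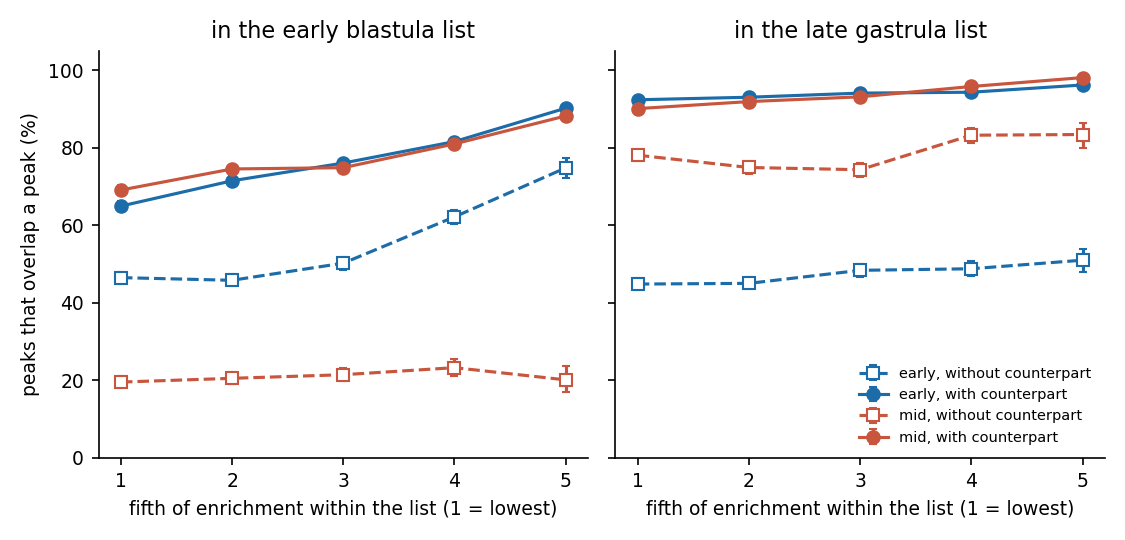
Share of peaks that overlap a peak of the early blastula list (left) or the late gastrula list (right), in percent, by 5 classes of within-list enrichment (1 lowest), for early gastrula (blue) and mid gastrula (red) peaks with (filled, solid) and without (open, dashed) a counterpart in the other gastrula list; bars are Wilson 95% intervals. Early-only peaks rise from 46.5% to 74.8% on the left while mid-only peaks stay between 19.5% and 23.3%, and on the right mid-only peaks lie above early-only peaks in every class.

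By combined pattern, the early-only class was a near-even mixture. Of the 15143 early-only peaks, 3971 (26.2%) overlapped both an early blastula and a late gastrula peak, 3863 (25.5%) an early blastula peak alone, 3112 (20.6%) a late gastrula peak alone and 4197 (27.7%) neither. The mid-only class was dominated by 1 pattern, with 6073 of 9946 peaks (61.1%) overlapping a late gastrula peak alone. A further 1622 mid-only peaks (16.3%) overlapped both, 446 (4.48%) an early blastula peak alone and 1805 (18.1%) neither. Early-only peaks that were present on both sides of mid gastrula were the most enriched of the 4 patterns, at a median percentile of 44.1, against 39.7 for early blastula alone, 33.8 for late gastrula alone and 33.1 for neither. Among the 1071 early-only peaks in the highest 20% of enrichment, 416 (38.8%, 36.0 to 41.8) had both neighbours. These 416 peaks had a median percentile of 87.6 at early gastrula, 86.4 for the overlapping early blastula peak and 79.5 for the overlapping late gastrula peak. Their nearest mid gastrula peak was at a median distance of 13592.5 bp, and 29 of them (6.97%) had one within 500 bp, against 18.3% of early-only peaks. Of the 416, 241 (57.9%) had the maximum score, against 12.7% of the 3971 early-only peaks with both neighbours. The 416 were chosen for high enrichment, and neither share is given here for all early gastrula peaks of like rank. Whether they were inaccessible at mid gastrula or missed by its list was not tested.

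Peak width differed between the classes, also among peaks of like enrichment. The median width was 247 bp for early-only peaks (246 to 249) and 316 bp for matched early gastrula peaks. Mid-only peaks had a median width of 262 bp (260 to 264) and matched mid gastrula peaks 312 bp. Width and enrichment moved together weakly, with a Spearman rho of 0.265 over all early gastrula and 0.276 over all mid gastrula peaks. In the lowest 20% of enrichment, early-only peaks measured 228 bp and matched early gastrula peaks 276 bp. In the highest 20% these medians were 297 and 350 bp. The difference within a class of enrichment was 48 to 59 bp at early gastrula and 24 to 41 bp at mid gastrula. Since width itself enters the overlap rule, the classes were also counted with windows of equal size. With windows of 200 bp around the summits in place of the deposited edges, 16121 early-only and 11029 mid-only peaks were counted. Class widths were not computed under that rule, so whether unmatched peaks stayed narrower there was not tested.

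**Figure D3:**
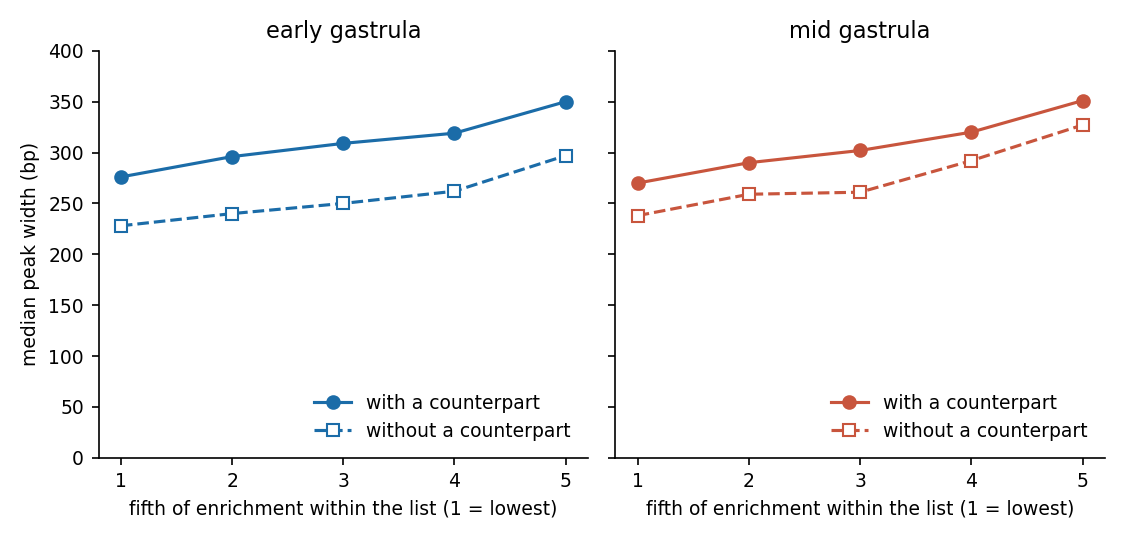
Median peak width in bp (vertical axis, from 0) in 5 classes of within-list enrichment (horizontal axis, 1 lowest), for peaks with (filled) and without (open) a counterpart, at early gastrula (left) and mid gastrula (right). Matched peaks are the wider ones in every class, by 48 to 59 bp at early gastrula and by 24 to 41 bp at mid gastrula.

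The summit, the position of highest signal inside a peak, lay near the middle in every class. Its median position was 49.2% of the width from the start for early-only, 49.3% for matched early gastrula, 49.1% for mid-only and 49.4% for matched mid gastrula peaks. The quartiles were 41.9% and 56.4% for early-only and 41.0% and 57.7% for matched early gastrula peaks, so summits of matched peaks were spread slightly more.

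In the whole lists unmatched peaks stood further from their neighbours. For mid-only peaks this order turned when the early gastrula list was cut by enrichment to the length of the mid gastrula list. The nearest peak of the same list was at a median distance of 4012 bp from an early-only peak (3826 to 4175) and 1777 bp from a matched early gastrula peak (1709 to 1850). At mid gastrula these distances were 3800.5 bp (3572 to 3995) and 2098 bp (2029 to 2176). At equal list lengths ranked by enrichment, the mid-only distance was 2158 bp (2053 to 2268), below the 2587 bp of matched mid gastrula peaks (2496 to 2695). That cut left the mid gastrula list whole, so no distance between mid gastrula peaks changed. It moved 2801 mid gastrula peaks from matched to mid-only, which put the mid-only share at 64.2% in the lowest 20% of enrichment. There the whole-list median distances were 985.5 bp for mid-only and 621 bp for matched peaks. Ranked by −log10 p, the mid-only distance was 3588 bp against 2087 bp. Early-only peaks were the more distant ones in both rankings, at 5584 against 3016 bp and 5005.5 against 2199 bp. Spacing also widened with enrichment. In the least enriched 10% of the early gastrula list, early-only peaks were no further apart than matched ones, at 514 and 544 bp. In the lowest 20% of the early gastrula list the median distance was 790.5 bp for early-only and 592 bp for matched peaks, and in the highest 20% it was 10776 and 6649 bp. Weakly enriched peaks of both classes thus had the closer neighbours. The nearest early gastrula peak of an early-only peak was itself early-only in 34.1% of cases (33.3 to 34.8), against 27.4% for matched peaks (26.9 to 27.9). For mid-only peaks this share was 26.7% (25.8 to 27.6), against 20.3% for matched mid gastrula peaks (19.9 to 20.8). Both early gastrula shares lie within 4 percentage points of the background of 31.3%.

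Few peaks sat at the edge of the 1 bp rule. Among 33907 overlapping pairs the median overlap was 282 bp, and in 19159 pairs (56.5%) the shorter peak lay wholly inside the longer. Just inside the rule, 56 pairs overlapped by 1 to 50 bp, with a median percentile of 33.4 at early and 48.5 at mid gastrula. Just outside it, 376 early-only peaks lay within 50 bp of a mid gastrula peak. They had a median percentile of 18.3 and a width of 226 bp, while the mid gastrula peaks next to them stood at percentile 60.8 and 295.5 bp. The mirror case held 219 mid-only peaks, at percentile 15.1 and 216 bp beside early gastrula peaks at percentile 55.0 and 298 bp. Peaks that missed the rule narrowly were therefore mostly weak, narrow peaks beside stronger ones. Of the 1001 early-only peaks with a mid gastrula peak within 100 bp, that neighbour was itself mid-only in 108 cases (10.8%, 9.02 to 12.9), so most of these neighbours were matched to another early gastrula peak. The median distance to the nearest peak of the other list was 5073 bp for early-only and 3714 bp for mid-only peaks.

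Where peaks were matched, the match was usually simple. In 31647 pairs each peak had 1 partner. Another 621 early gastrula peaks overlapped 2 or more mid gastrula peaks, and 525 mid gastrula peaks overlapped 2 or more early gastrula peaks. These were broad peaks, with median widths of 674 and 628 bp, against 312 and 309 bp for peaks with 1 partner. Their median percentiles were 64.5 and 65.3. The values below refer to the 31647 simple pairs.

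Enrichment ranks were kept in most pairs. The percentiles of the 2 stages had a Spearman rho of 0.864 over the 31647 pairs, which share the genome positions and the peak caller. The median size of the shift was 7.64 points and the quartiles of the signed shift were −8.37 and 6.97. From early to mid gastrula, the median of the signed shift was −0.28 points (−0.40 to −0.19), with 15305 pairs rising and 16342 falling. This sign turned with the ranking: among paired peaks alone it was 0.14, and at equal list lengths 2.73. Ranks were most stable at both ends. The median size of the shift was 3.71 points in pairs whose mean percentile was at most 20, 13.6 points between 40 and 60, and 3.73 points above 80, where the bounds of the scale limit it.

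Shifts of 25 points or more were uncommon: 1487 pairs (4.70%) rose and 1908 (6.03%) fell by that much. By −log10 p, 1931 rose and 3425 fell, so the balance between rises and falls depended on the measure. Among pairs that shifted by 25 points or more in enrichment percentile, the sign was nearly always the same on both measures. By −log10 p, 99.5% of these rising pairs and 0.105% of these falling pairs went up.

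**Figure D4:**
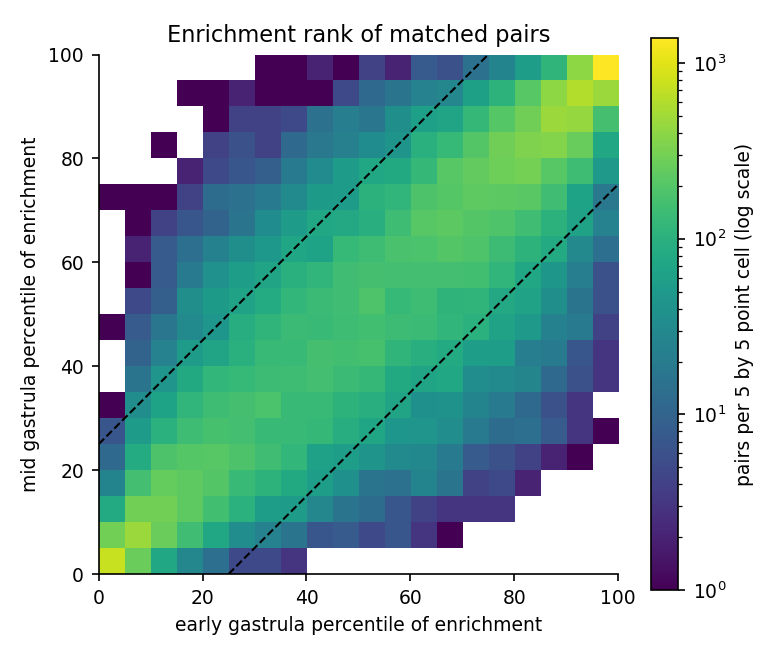
Number of matched pairs (colour, log scale) by early gastrula percentile (horizontal axis) and mid gastrula percentile (vertical axis) of enrichment, in cells of 5 by 5 points; dashed lines mark shifts of 25 points. Most pairs lie near the diagonal, most tightly at its ends, with 1487 pairs at or above the upper and 1908 at or below the lower line.

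Pairs that shifted differed from all pairs in the outer lists. Those lists had no part in choosing them, but presence of matched peaks there rose with enrichment rank in the gastrula lists. Rising pairs had been chosen with median percentiles of 34.3 at early and 68.4 at mid gastrula. Of these, 53.7% had an early blastula counterpart (51.1 to 56.2), against 77.9% of all pairs, and 95.2% had a late gastrula counterpart (94.02 to 96.2), against 94.3% of all pairs. Where present, the early blastula peak stood at a median percentile of 41.7 and the late gastrula peak at 70.9. Falling pairs had been chosen with median percentiles of 72.4 and 36.4. Of these, 79.3% had an early blastula counterpart (77.4 to 81.1) and 82.0% a late gastrula counterpart (80.2 to 83.6). Their early blastula peaks stood at 69.6 and their late gastrula peaks at 56.7. These medians are read against those of all pairs, which were 58.0 at early gastrula, 56.4 at mid gastrula, 60.3 at early blastula and 65.7 at late gastrula. Rising pairs thus lay below all pairs at early blastula and above them at late gastrula, and falling pairs the other way round, as they did at early and mid gastrula. Whether these outer percentiles differed from those of pairs of like early or mid gastrula rank was not tested.

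Grouped the other way, the 1131 pairs with an early blastula but no late gastrula peak fell by 25 points or more in 22.7% (20.4 to 25.3) and rose in 2.65% (1.86 to 3.76), against the background of 6.03% and 4.70%. Their median shift was −9.69 points (−10.8 to −8.49). The 6318 pairs with a late gastrula but no early blastula peak rose in 10.3% (9.53 to 11.03) and fell in 4.87% (4.37 to 5.43). Their median shift was 2.17 points (1.72 to 2.44) and their median early gastrula percentile 40.9. Of all pairs at early gastrula percentiles 20 to 40, 11.95% rose and 1.18% fell, with a median shift of 2.99 points. At 40 to 60, 8.33% rose and 6.83% fell, with a median shift of 0.17 points. Whether the 6318 pairs differed from pairs of like early gastrula rank was not tested. The 23521 pairs present in all 4 lists had a median shift of −0.50 points, with 3.27% rising and 5.34% falling. In the 677 pairs present at neither outer stage 6.06% rose and 12.9% fell.

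The largest rise was on scaffold 20, from percentile 17.4 at early gastrula (31514011 to 31514260, enrichment 5.81) to 92.8 at mid gastrula (31514000 to 31514305, enrichment 14.9). No early blastula peak overlapped it, and the late gastrula peak stood at percentile 83.6. The next, on scaffold 4, went from percentile 1.30 (20845172 to 20845339) to 74.7 (20844885 to 20845226), but its summit position changed by −344 bp and another early gastrula peak lay 21 bp away, so the paired summits mark different positions. The third, on scaffold 23, went from percentile 22.3 (17553559 to 17553718) to 92.2 (17553554 to 17553921), with no early blastula peak and a late gastrula peak at percentile 98.7. The early gastrula peaks of these 3 pairs had scores of 423 to 465, near the low end of the list.

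The largest fall was on scaffold 15, from percentile 90.5 (18929170 to 18929432, enrichment 13.4) to 20.5 (18929197 to 18929346, enrichment 6.23), with an early blastula peak at percentile 91.8 and none at late gastrula. On scaffold 17 a pair went from percentile 95.2 (286343 to 286678) to 26.6 (286434 to 286663), with an early blastula peak at 95.8 and none at late gastrula. Another on scaffold 15 went from 77.8 (6758320 to 6758705) to 10.1 (6758420 to 6758727), with peaks at 88.7 at early blastula and 65.8 at late gastrula. All 3 falling sites were thus at percentile 77.8 or above at both early blastula and early gastrula.

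The pairs highest in the lower of their percentiles are given as a description, since that choice keeps both ranks near 100. The pair on scaffold 2 at 2129389 to 2129776 had an enrichment of 29.0 at early and 30.2 at mid gastrula and was the most enriched peak of the mid gastrula list. The pair on scaffold 10 at 28589849 to 28590130 had 28.6 at both stages, and that on scaffold 17 at 20386226 to 20386531 had 28.0 and 29.3. Their summit positions changed by 1, −1 and −3 bp.

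Widths of matched peaks changed little on balance. The median change from early to mid gastrula was −2 bp (−2 to −1) and its median size 28 bp, with 16295 pairs narrower and 14988 wider at mid gastrula. The direction depended on width. Pairs with a mean width over 600 bp changed by a median of −16 bp (−19 to −13) and 60.5% of them were narrower, whereas pairs of 200 to 300 bp changed by 1 bp (0 to 1). Width moved with enrichment rank: rising pairs widened by a median of 23 bp (21 to 25) and 70.9% of them were wider, while falling pairs changed by −20 bp (−23 to −18) and 27.3% were wider. The Spearman rho of width change and percentile shift was 0.205 over the 31647 pairs, both taken from the same reads. The largest gain, 685 bp, was on scaffold 20, from 19422336 to 19422634 at early gastrula to 19422286 to 19423269 at mid gastrula. Gains of 644 bp on scaffold 19 (38199184 to 38199476 at early gastrula) and 632 bp on scaffold 17 (5268039 to 5268325) came next. The largest losses were changes of −943 bp on scaffold 4 (47013548 to 47014728 at early gastrula), −854 bp on scaffold 15 (3782017 to 3783257) and −850 bp on scaffold 7 (1670526 to 1671606). The last of these rose by 34.9 percentile points while it narrowed, and its nearest early gastrula neighbour was 80 bp away.

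Summits of a pair mostly lay close together, within the limit that overlap sets. The median distance between the summits of a pair was 9 bp, 2922 pairs (9.23%) had the same summit base, 54.8% lay within 10 bp and 96.6% within 100 bp. In 31527 pairs (99.6%) each summit lay inside the other peak. Shifts had no preferred direction along the scaffold, with 14427 to higher and 14298 to lower positions. The distribution had a sharp centre and a broad shoulder: 1571 pairs lay 41 to 50 bp apart and 1264 lay 51 to 60 bp apart, and the count dropped to 84 at 91 to 100 bp. Peaks whose summits were further apart were wider, with a median early gastrula width of 298 bp at 1 to 10 bp and 359 bp at 71 to 80 bp. In 489 pairs (1.55%) the summits were over 200 bp apart, with median widths of 604 bp at early and 576 bp at mid gastrula. Among rising pairs 1.82% and among falling pairs 2.04% had summits that far apart, a distance that overlap and peak width limit. The median summit distance was 11 bp in rising and 11 bp in falling pairs, against 9 bp in all pairs.

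**Figure D5:**
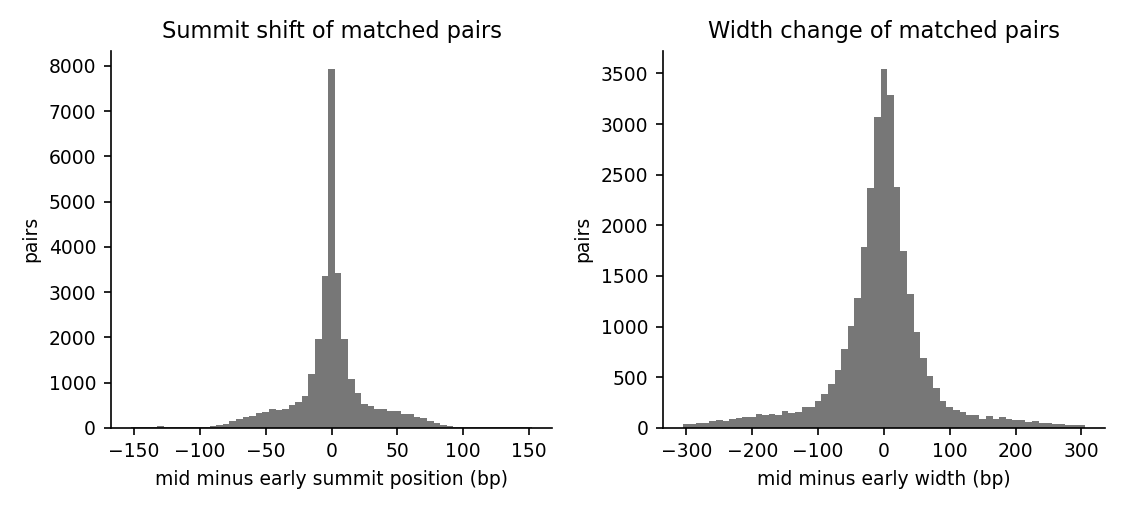
Number of matched pairs by summit shift (left, bins of 5 bp) and by width change (right, bins of 10 bp), both as mid minus early gastrula in bp. Both centre at about 0, with a summit median distance of 9 bp and a width change of −2 bp; 687 pairs on the left and 643 on the right lie beyond the plotted range.

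At equal list lengths the excess of early-only peaks was gone. Both lists were cut to 43317 peaks, which leaves the mid gastrula list whole and makes the unmatched counts nearly equal by construction. Ranked by enrichment, 12982 early-only peaks (30.0%, 29.5 to 30.4) and 12747 mid-only peaks (29.4%, 29.0 to 29.9) remained, a ratio of 1.02. Ranked by −log10 p, there were 11464 early-only (26.5%) and 11237 mid-only peaks (25.9%), again a ratio of 1.02. Of the 12747 mid-only peaks by enrichment, 2801 had a counterpart in the whole early gastrula list that the cut removed. Their removal put the mid-only share at 64.2% in the lowest 20% of the mid gastrula ranking. In the highest 20% by enrichment, 896 of 8660 early gastrula peaks (10.3%, 9.72 to 11.01) and 542 of 8660 mid gastrula peaks (6.26%, 5.77 to 6.79) lacked a counterpart. In the whole lists these shares were 11.1% and 6.26%. The cut removed only the least enriched early gastrula peaks, so the early gastrula peaks of this class could not gain or lose a counterpart. The excess among strongly enriched peaks is therefore no check on the effect of list length.

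The contrast in the outer lists, which were not cut, had the same direction at equal lengths. Since the mid gastrula list stayed whole, the early-only peaks here are a part of the 15143 early-only peaks of the whole lists. The mid-only peaks include all 9946 of the whole lists, so these shares largely recount the same peaks. By enrichment, 52.6% of early-only and 30.0% of mid-only peaks had an early blastula counterpart, and 47.4% and 80.7% a late gastrula counterpart. With lists ranked by −log10 p these shares were 57.1% and 23.4%, and 49.3% and 77.9%. Unmatched peaks stayed narrower than matched peaks, at 251 against 320 bp at early and 265 against 315 bp at mid gastrula by enrichment. Over the 29047 simple pairs of the lists cut by enrichment, 2691 (9.26%) rose and 1389 (4.78%) fell by 25 points or more, the reverse of the balance in the whole lists. Cutting the early gastrula list alone lowers every early gastrula percentile that remains, which moves all pairs towards a rise. With each list cut to its upper 21658 peaks by enrichment, 6351 early-only and 6324 mid-only peaks were counted, of which 2047 and 3358 had a counterpart in the whole other list.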

How the data were processed

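ATAC-seq peaks of early and mid gastrula were compared, with 1 deposited list per stage and 2 libraries behind each. Bowtie2, bedtools and MACS2 are named in the submitters' processing notes without version, role or settings. Build, Tn5 shift, duplicate treatment and whether peaks were called per library or on pooled libraries: not given in the sources used here. Each list is a table of 12 columns without header. By layout and values, the authors deposited a score (at most 1000) and −log10 IDR scores, a fold enrichment ratio (column 7) and a −log10 p per peak (column 8). The highest IDR was 0.1. Depth is unknown, which limits how far a missing peak can be read.

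Summits were column 2 plus column 10. Overlaps of at least 1 bp, nearest distances and percentiles (tied values averaged) were computed with pandas 2.3.3 and NumPy 2.4.6, intervals with SciPy 1.17.1 and plots with Matplotlib 3.10.9 (Python 3.11.15), and checked on simulated data. Shares carry Wilson intervals and medians order-statistic intervals. Equal lists were cut by column 7 or 8. Named sites are the 3 leading early-only and mid-only peaks by enrichment, the 3 pairs highest in the lower of their percentiles, and the 3 with the largest rise, fall, width gain and width loss; ties went by −log10 p, then position. Members and rules were chosen with earlier results of these data known. No motif, gene list or cell type marker list was used. The shares of peaks found in the early blastula and late gastrula lists were added after seeing the data.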

Additional observations from a re-analysis of the deposited data

How the results depend on the processing

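Of 118 values under 9 alternatives, 65 stayed within 1.5 times (counts) or within the 95% interval of the value reported, 49 moved and 4 changed direction. The cause of a change was not tested unless stated. The median percentile shift of pairs changed sign to 2.73 and 1.70 at equal list lengths (by columns 7 and 8) and to 0.14 when paired peaks alone were ranked; it was −0.17 with an IDR of at most 0.01 and −1.76 by column 8. The ratio of early-only to mid-only peaks was 1.02 and 1.02 at equal lengths, 1.46 with windows of 200 bp and 1.91 with an IDR of at most 0.01. That last threshold keeps 25100 early and 21600 mid gastrula peaks. It gave 7422 early-only and 3893 mid-only peaks, of which 34.9% and 36.1% also lacked a counterpart in the whole other list, and 439 rising and 550 falling pairs. At equal lengths by column 7, 2691 pairs rose; by column 8 percentiles, 3425 fell.

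Early-only percentiles were 35.7 and 40.8 at equal lengths, 44.9 with the stricter IDR and 23.8 by column 8; mid-only percentiles were 25.1, 32.9, 41.4 and 22.1. Early-only widths were 251, 258 and 294 bp and mid-only widths 265, 259 and 324 bp at equal lengths and with the stricter IDR. The distance to the nearest peak of the same list was 5584, 5005.5, 3605 and 7053 bp for early-only peaks (equal lengths by columns 7 and 8, 200 bp windows, stricter IDR). For mid-only peaks it was 2158 bp at equal lengths by column 7, below that of matched peaks, 3215 bp with windows and 6877.5 bp with the stricter IDR. That IDR gave a width change of −3 bp and a summit distance of 8 bp, as did 200 bp windows for the latter. Early-only peaks overlapped an early blastula peak in 52.6%, 57.1%, 53.4% and 81.1% (equal lengths by columns 7 and 8, 200 bp windows, stricter IDR), and mid-only peaks in 30.0%, 23.4%, 26.8% and 40.3%. With a late gastrula peak, early-only shares were 49.3%, 49.3% and 76.4% (column 8, windows, stricter IDR) and mid-only shares 80.7%, 78.4% and 95.7% (column 7, windows, stricter IDR). The early blastula and late gastrula lists were kept whole in all these settings, also with the stricter IDR, and overlap with them was by deposited edges. In each of these settings early-only peaks had the higher early blastula and the lower late gastrula share. The ranking among paired peaks, the distances and the shares in the outer lists were added after seeing the data. No paired analysis was possible because both replicates of a stage share 1 list, without values for either, and no replicate could be left out. Depth, which the lists do not give, limits every statement on a missing peak.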

Other observations

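Most runs of unmatched peaks were of a single peak. Along the scaffolds the 15143 early-only peaks formed 9902 runs of consecutive early gastrula peaks, 6577 of them of 1 peak, and 4312 peaks (28.5%) stood in runs of 3 or more. The 9946 mid-only peaks formed 7335 runs, 5431 of them of 1 peak, and 1709 peaks (17.2%) stood in runs of 3 or more. Run lengths carry the unmatched shares of 31.3% and 23.0%, and none were computed for a random order. Whether unmatched peaks cluster or stand alone was therefore not tested. The longest early-only run held 11 peaks over 307 kb of scaffold 12, from 26060989 to 26367901, at a median percentile of 52.5. Of these 11 peaks, 7 overlapped an early blastula and 4 a late gastrula peak. The longest mid-only run held 10 peaks over 263 kb of scaffold 24, from 4541757 to 4804877, at a median percentile of 52.6, and 9 of the 10 overlapped a late gastrula and 1 an early blastula peak. Both runs were chosen for their length after the data were seen.

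The early-only share was similar on the large scaffolds and varied widely between windows. Over the 27 scaffolds of at least 10 Mb it ran from 28.6% on scaffold 10 to 35.0% on scaffold 3, with a median of 31.2%. The mid-only share ran from 20.4% on scaffold 14 to 26.6% on scaffold 24. Early-only peaks outnumbered mid-only peaks on 27 of the 27 scaffolds, by 1.25 times on scaffold 23 to 1.98 times on scaffold 3, which carries the difference in list lengths. On the shorter scaffolds 292 of 825 early gastrula peaks (35.4%, 32.2 to 38.7) and 204 of 730 mid gastrula peaks (27.9%, 24.8 to 31.3) were unmatched. In 1519 windows of 100 kb with at least 10 early gastrula peaks, the early-only share had a median of 27.3% with quartiles of 18.2% and 36.4%. It was 0 in 34 windows and above 50% in 73, and windows hold few peaks each, so counting error widens this spread.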
